A study of Homo sapiens with 15 samples.

Results

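IL24, the gene of interleukin 24, was followed across 15 Illumina HumanHT-12 v4 arrays of MDA-MB-436, a breast cancer line of human origin without functional BRCA1. Every probe annotated to the gene was taken, which gave 2 of the 48107 probes in the signal table, and IL24 was 1 of 12302 genes tested. The 5 groups of 3 arrays each were cells given the solvent DMSO, AG014699 at 10 nM, AG014699 at 100 nM, LY294002, or 100 nM AG014699 together with LY294002, which is named the combination. Treatment lasted 7 days, and the concentration of LY294002 is not given in the sources used here. AG014699 (rucaparib) blocks PARP1, an enzyme of DNA strand break repair, and LY294002 blocks the kinase PI3K. The labels call the arrays triplicates without saying whether they came from separate cultures, so p-values cover the spread between the arrays alone, and that spread may be technical.

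Interleukin 24 is a secreted cytokine of the IL-10 family, first cloned under the name mda-7 from melanoma cells driven to differentiate. It binds receptors that pair the subunit IL20RB with IL20RA or IL22RA1, and these signal through JAK kinases and the transcription factor STAT3. In skin and immune cells it takes part in inflammation and wound repair, while forced expression is known to kill many kinds of tumour cells, with endoplasmic reticulum stress and a rise of GADD genes.

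IL24 was chosen by its measured signals, because it was higher with AG014699 than with DMSO in these data. The differences of the 3 AG014699 groups from DMSO are therefore a description with no test, and the tests below concern the other comparisons, which share arrays with them. The interaction below also holds such a difference as a term. Comparisons that use arrays with AG014699 hold signals the gene was chosen for, so their IL24 p-values and ranks are no independent test. Between 18971 and 20808 probes were detected per array, a probe being detected where its deposited detection p was under 0.05. Log2 signals correlated across genes, which are not independent replicates, at 0.979 to 0.992 within groups and at 0.959 to 0.988 between groups. The mesenchymal marker VIM was detected on all 15 arrays, at signals of 8319 to 13329. Of the 4 listed mesenchymal or basal markers, 1 fell and 0 rose in the combination against LY294002, where 8.86% of all genes were lower. That marker was CAV1, at -1.08 log2 units (limma adjusted p = 0.000246). ESR1, the oestrogen receptor gene of luminal breast cells, was detected on 3 of 15, while the luminal markers FOXA1 and KRT18 were detected on all. In RNA from whole cultures, fewer cells with a transcript and less transcript per cell cannot be told apart.

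IL24 was at the detection limit without AG014699 and well above it with the drug. On DMSO arrays 1, 2 and 3 the deposited signal of probe ILMN_1774685, which stands for the gene in the tests, was 119.1, 110.9 and 120.7, with detection p-values of 0.0769, 0.260 and 0.0702. At 10 nM AG014699 the signals were 312, 346 and 398, and at 100 nM they were 684, 482 and 579. With LY294002 alone they were 127, 119 and 115, and in the combination 242, 249 and 297. No array of the DMSO group detected the probe, 1 of 3 LY294002 arrays did, and all 9 arrays with AG014699 did. The LY294002 arrays had detection p-values of 0.0326, 0.0742 and 0.168, and the 9 arrays with AG014699 had 0. The lowest of those 9 signals, 242, lay above 127, the highest of the 6 arrays without AG014699. Array 1 at 100 nM, with the highest signal, is the only 1 of the 15 whose signals are all whole numbers. Under a stricter detection limit of 0.01, 9 arrays in place of 10 detected the probe.

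**Figure D1:**
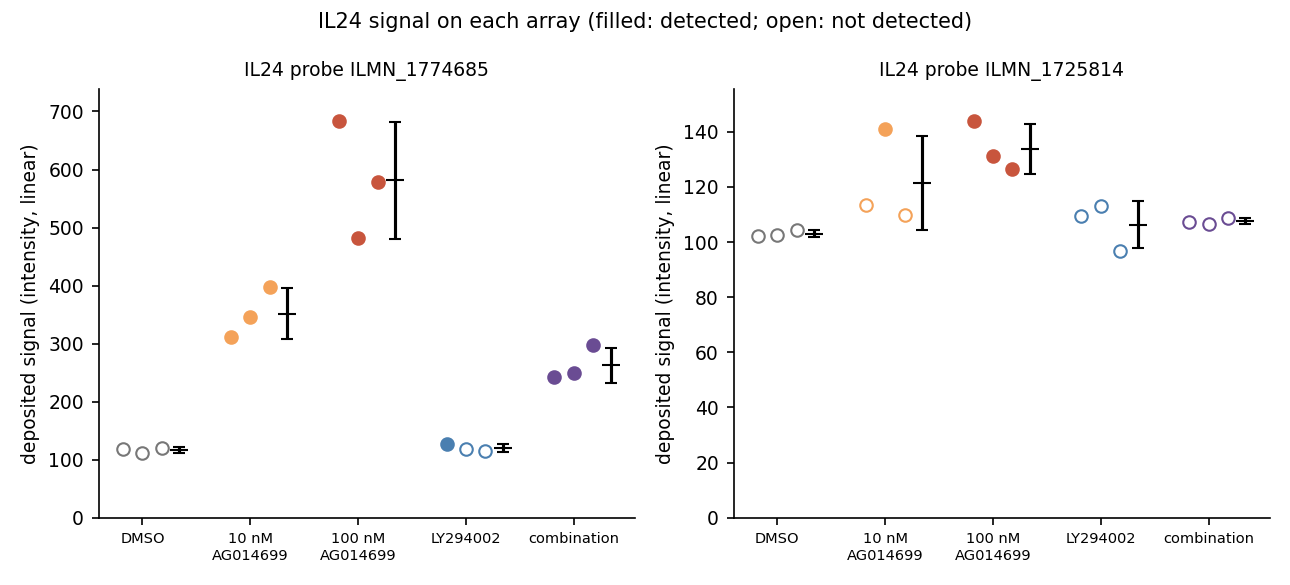
Deposited signal intensity (arbitrary units, linear axis) of the IL24 probes on each of the 15 arrays, by group of 3; filled points are arrays with a detection p under 0.05, open points are not detected, and bars show the group mean ± SD. For ILMN_1774685 the 9 arrays with AG014699 lie between 242 and 684 and the 6 without it at or under 127, while ILMN_1725814 does not pass 144.

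The mean signal of ILMN_1774685 was 117 ± 5.31 with DMSO, 352 ± 43.4 at 10 nM, 582 ± 101 at 100 nM, 120 ± 6.35 with LY294002 and 263 ± 30.1 in the combination (SD, n = 3 each). On the normalized log2 scale used for the tests, the same means were 4.93 ± 0.16, 8.03 ± 0.23, 8.93 ± 0.30, 5.04 ± 0.21 and 7.43 ± 0.24. The order was thus 100 nM, 10 nM, combination, LY294002, DMSO. The 10 nM group and the combination, which differ in AG014699 dose as well as in LY294002, lay 0.59 log2 units apart with a gap of 0.10 between their ranges. LY294002 and DMSO overlapped. Among all 48105 probes of an array, detected or not, IL24 stood at percentile 44.6 to 57.4 with DMSO and at 85.9 to 88.9 at 100 nM.

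Because no DMSO array detected IL24, its rise over DMSO is given as a lower bound, set against the detection floor of the arrays. IL24 was at least 7.52-fold higher at 10 nM, at least 14.0-fold higher at 100 nM and at least 4.98-fold higher in the combination. These bounds hold only on the normalized scale used for the tests. On that scale the fitted log2 differences were 3.09, 3.99 and 2.50. The deposited signals gave differences smaller than the bounds, at 1.58, 2.30 and 1.16 log2 units. In both single-agent comparisons 1 gene had a larger difference than IL24, and in the combination 19 did. These are the values the gene was chosen for, among comparisons in which 2.37%, 21.5% and 19.9% of all genes passed the test in either direction. In the combination against DMSO 10.4% were higher and 9.54% lower.

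The second probe, ILMN_1725814, was dim. Its signals were 102, 103 and 104 with DMSO, 114, 141 and 110 at 10 nM, and 144, 131 and 126 at 100 nM. With LY294002 they were 109, 113 and 96.7, and in the combination 107, 107 and 109. It was detected on 4 arrays, all 3 at 100 nM and 1 at 10 nM. The group means of both probes had the same order, and over the 15 arrays, which share the 5 treatments, their log2 signals correlated at r = 0.714 (Spearman 0.85). The dim probe did not separate the combination from LY294002, at a difference of 0.00 log2 units with overlapping ranges.

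IL24 was higher in the combination than with LY294002 alone. The combination stood 2.39 log2 units above LY294002 alone (SE 0.18, 95% interval 2.00 to 2.78, limma adjusted p = 5.8e-07) and 1.99 units separated the ranges of the groups. All 3 combination arrays detected IL24 against 1 of 3 with LY294002, so the size rests on a level near the detection limit, and it was 2.24 with values raised to the detection floor. In this comparison 9.42% of genes were higher and 8.86% lower. IL24 was chosen in part for the high combination arrays, at 2.50 above DMSO, so its p-values here are no independent test. IL24 passed the filter on dim probes through the arrays with AG014699, and without the filter the difference was also 2.39. The call held in every alternative but the dim probe alone, while the size fell to 1.12 with quantile normalization only or the deposited signals, 1.39 with normexp and 1.20 with the mean of the probes.

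IL24 was lower in the combination than with 100 nM AG014699 alone. The combination was 2.82-fold lower than 100 nM AG014699 alone, at a log2 difference of -1.49 (SE 0.18, 95% interval -1.88 to -1.10, limma adjusted p = 0.00131). Its highest array lay 0.92 units under the lowest array of 100 nM, and without the whole-number array the difference was -1.35 (adjusted p = 0.0111). Only 0.333% of all genes passed in either direction here, 0.228% of all genes being lower, and 2 genes were lower than IL24. IL24 was chosen for high signals at 100 nM, which push this difference down, so its rank and p-values are no independent test. The call held without any single array, and it was lost when the arrays numbered 1 of all groups were dropped together (-1.26, adjusted p = 0.0788). The dim probe alone also lost it (-0.829, limma adjusted p = 0.203).

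Without AG014699, LY294002 gave no detectable change of IL24. The difference from DMSO was 0.11 log2 units (SE 0.18, 95% interval -0.28 to 0.50, limma adjusted p = 0.852). In this comparison 1.12% of genes passed. With 0 of 3 DMSO arrays and 1 of 3 LY294002 arrays detecting the probe, a fall below DMSO could not have been measured.

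IL24 also differed by dose. At 100 nM it was 1.87-fold higher than at 10 nM, at a log2 difference of 0.90 (SE 0.18, 95% interval 0.51 to 1.29, limma adjusted p = 0.00663), with 0.35 units between the ranges. Of all genes 9.58% passed here, 4.71% higher and 4.88% lower, and 158 genes had a larger difference than IL24. The signals of both groups were among those IL24 was chosen for, so its rank and p-values here are no independent test. Without the whole-number array the difference was 0.75 (adjusted p = 0.0295). The call held without any single array and was lost when all the arrays numbered 1 were dropped (0.64, adjusted p = 0.0963). It was also lost with the dim probe alone (0.405, limma adjusted p = 0.331).

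The interaction asks whether the effect of LY294002 with AG014699 differs from its effect without. For IL24 it was -1.60 log2 units (SE 0.26, 95% interval -2.16 to -1.05), and no other of the 12302 genes had a lower value. The interaction equals the combination minus LY294002 (2.39), less the difference of the higher AG014699 dose alone from DMSO (3.99). IL24 was chosen for that second difference, and a large value of it pushes the interaction down. The rank and p-values of the interaction, under every alternative, therefore draw on the selecting values and are no independent test. The interaction of IL24 fell short of the threshold over all genes (limma adjusted p = 0.0758, unadjusted p = 1.85e-05). Over all genes, 1 passed, which was higher (0.00813% of genes), and 889 had an unadjusted p under 0.05. The value compares a fall from a measured level with a change at the detection limit, where no fall could be seen. It passed under 5 alternatives, among them the deposited signals as they stand (-1.18, adjusted p = 0.00241) and a trended robust variance (adjusted p = 0.0239).

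**Figure D2:**
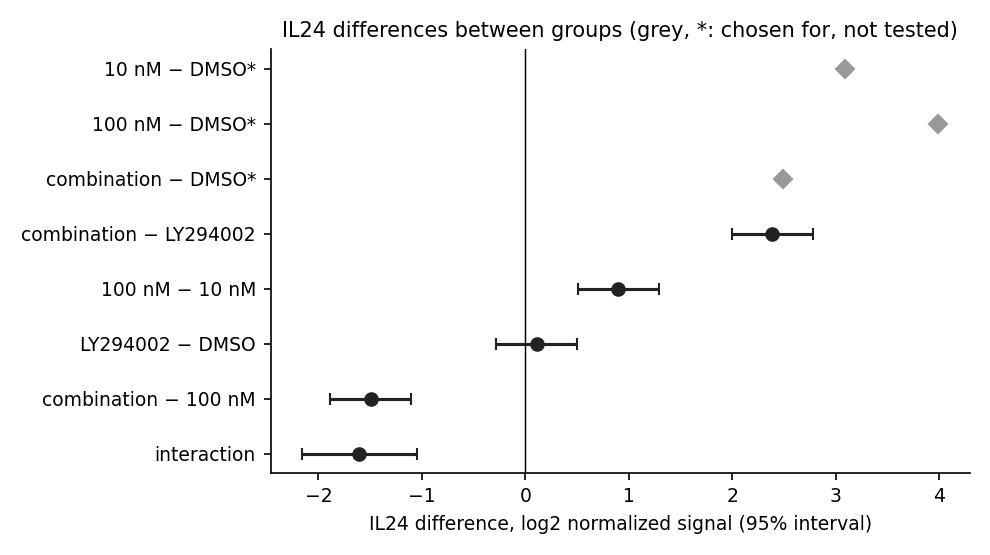
IL24 differences between group means in log2 units for each comparison and the interaction; points with bars are tested differences with 95% intervals, and grey diamonds are the differences from DMSO for which the gene was chosen. The combination lies above LY294002 by 2.39 and below 100 nM AG014699 by 1.49, while LY294002 against DMSO spans 0.

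Other secreted cytokines known as alarm signals of injured or stressed cells were set beside IL24. Of 15 listed genes 10 were tested. In the combination against LY294002, 9 rose and 0 fell, with a median of 2.25 log2 units against 0.00 over all genes. Of all genes 9.42% were higher and 8.86% lower there. IL1B, the gene of interleukin 1 beta, rose by 2.58 (SE 0.12) and the neutrophil attractant gene CXCL8 by 2.53 (SE 0.13). CCL20, which attracts lymphocytes and dendritic cells, rose by 2.79 (SE 0.12). CSF3, which encodes granulocyte colony-stimulating factor, was at least 6.14-fold higher. LIF, an interleukin 6 family cytokine gene, was at 0.26 (adjusted p = 0.193).

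LY294002 on top of 100 nM AG014699 lowered 8 of these 10 genes and raised 0 (median -0.98, all genes 0.01). Of all genes 0.228% were lower and 0.106% higher there. CSF3 fell by 1.73 (SE 0.16), CXCL1 by 1.43 (SE 0.15) and IL6 by 1.38 (SE 0.14), beside 1.49 for IL24. CXCL8 was at -0.66 (adjusted p = 0.0521), and IL11, a gene of the interleukin 6 family, at -0.13 (adjusted p = 0.857). Over the alternatives 5 to 9 of the 10 fell.

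Without AG014699 the values of these genes and of IL24 stood apart. LY294002 against DMSO lowered 8 of the 10 (median -0.92, all genes -0.01; 0.61% of all genes were lower) and raised 0, with CXCL1 at -1.76 (SE 0.15) and CCL20 at -1.30 (SE 0.12). CSF3 was at least 2.80-fold lower. IL1B signals were 1497 to 1577 with DMSO and 770 to 983 with LY294002, so unlike IL24 they had room to fall. None of the 10 had an interaction that passed, and their difference from IL24 was not tested. Over the alternatives 4 to 9 of the 10 fell.

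By dose, 1 of the 10 rose and 3 fell from 10 to 100 nM (median -0.43, all genes -0.02). Of all genes 4.71% were higher and 4.88% lower there. IL6 fell by 1.18 (SE 0.14) and CSF3 by 0.72 (SE 0.16), while IL1B was at 0.00 and CXCL8 at 0.12, neither of which passed. IL11, at 0.71 (SE 0.21, adjusted p = 0.0494), was the member that rose besides IL24, and 18 alternatives ended that call.

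**Figure D3:**
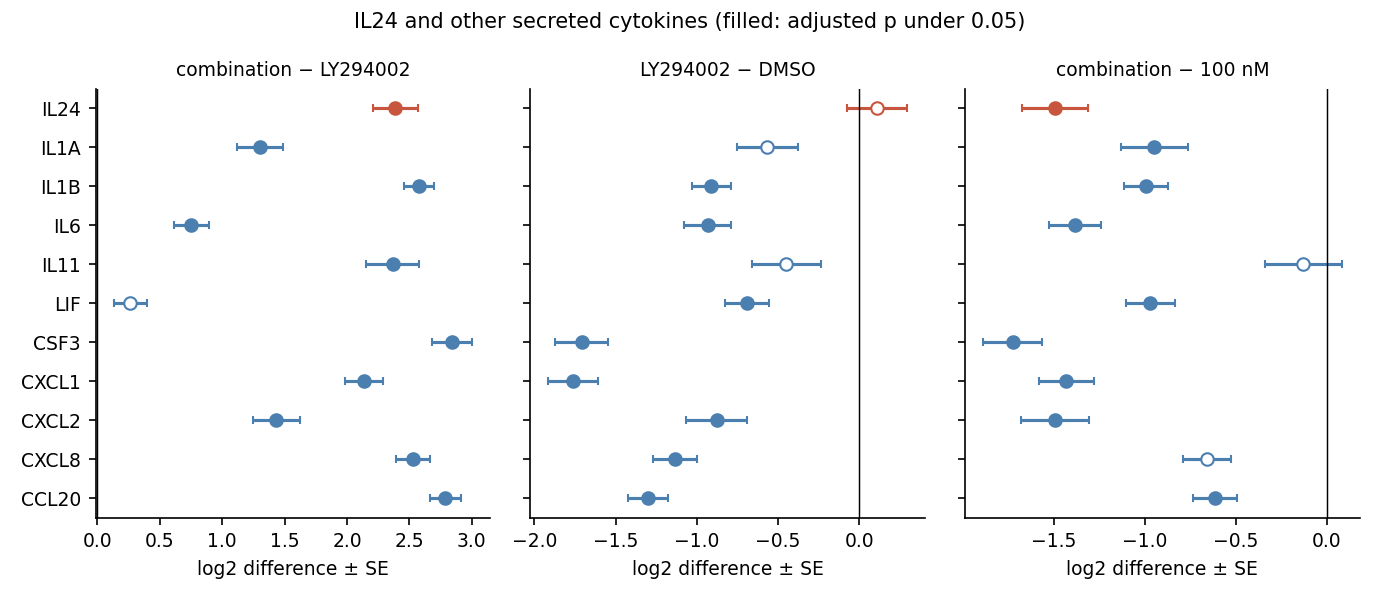
Log2 differences of IL24 and the 10 other tested alarm cytokine genes in the comparisons named on the plot, with SE bars, each from 3 arrays against 3. Filled points passed at an adjusted p under 0.05; IL24 lies at 2.39 and -1.49 in the combination against LY294002 and against 100 nM AG014699, and at 0.11 for LY294002 against DMSO, where CXCL1 is at -1.76.

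The receptor side was measured in part. IL20RB, the subunit common to both IL24 receptors, gave signals of 127 to 133 with DMSO, 136 to 142 at 10 nM, 153 to 157 at 100 nM, 130 to 131 with LY294002 and 128 to 152 in the combination. It rose by 0.70 from DMSO to 100 nM (SE 0.15, limma adjusted p = 0.00328), with ranges that did not overlap. The combination was at -0.41 against 100 nM (adjusted p = 0.271) and at 0.26 against LY294002 (adjusted p = 0.253). IL10RB, the subunit shared by the IL-10, IL-22 and lambda interferon receptors, fell by 0.41 at 100 nM against DMSO (adjusted p = 0.0192). IFNLR1, of the lambda interferon receptor, passed in no comparison. IL20RA, IL22RA1, IL22RA2 and IL10RA are not analysed here. Of the 3 subunits tested, 1 rose and 1 fell from DMSO to 100 nM, where 10.7% of all genes were higher and 10.8% lower.

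Downstream, 10 of 12 listed JAK-STAT genes were tested. Of these, 1 rose and 1 fell in the combination against LY294002 (median -0.16, all genes 0.00). Of all genes 9.42% were higher and 8.86% lower there, a share near that of the list. SOCS2, a feedback inhibitor of cytokine signalling, rose by 0.77 (SE 0.23, adjusted p = 0.0339), and SOCS3, the feedback inhibitor of STAT3 signalling, fell by 0.57 (SE 0.15, adjusted p = 0.0168). Both calls were lost under 6 or more alternatives. From 10 to 100 nM, SOCS1 fell by 0.88 (SE 0.17) and SOCS3 by 0.54 (SE 0.15), while 0 rose. By dose 4.71% of all genes were higher and 4.88% lower. The SOCS3 call was lost under 14 alternatives, the authors' second table among them. In the combination against 100 nM alone 0 of 10 passed, where 0.333% of all genes did.

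Of the IL-10 family only IL10 was measured beside IL24. Its signals ran from 4335 to 7507 with detection on all 15 arrays, and it passed in no comparison, at 0.21 in the combination against LY294002. Whether the probe used reads only IL10 was not tested. IL19, IL20, IL22, IL26, IFNL1, IFNL2 and IFNL3 are not analysed here.

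IL10, IL19, IL20 and IL24 lie next to each other on the long arm of chromosome 1. The 250 bases before the IL24 start are shown because IL24 differed between these treatments. They come from RefSeq (GRCh38.p14, chr1:206897193-206897442, plus strand) and have a GC content of 51.6%, and the capitals mark the only match to the motifs searched.
IL24 upstream: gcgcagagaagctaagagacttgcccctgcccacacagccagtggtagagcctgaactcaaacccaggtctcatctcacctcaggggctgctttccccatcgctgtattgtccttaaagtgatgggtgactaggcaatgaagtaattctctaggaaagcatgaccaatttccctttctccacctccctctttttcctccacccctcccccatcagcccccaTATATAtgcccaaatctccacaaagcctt
The match is TATATA, 29 to 24 bases before the start, and 3.73% of 35116 promoters of this length hold those letters. On either strand the window held no TATAAA (in 10.7% of promoters), no TGANTCA of AP-1 (6.57%), no TTGCNNAA of C/EBP (9.05%) and no GGG followed by NNN and TTCC, a form of the NF-kB site (5.67%). Nor did it hold TTCNNNGAA of STAT factors (6.57%), TGACGTCA of CRE-binding factors (1.65%) or GTAAACA of FOXO factors (2.98%). This says only that those letters are not in the window.

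The neighbouring genes had smaller differences than IL24 in the combination against LY294002. Of the 13 protein-coding genes around it 9 were tested, and there 1 rose and 0 fell (median 0.22, all genes 0.00), a share near the 9.42% of all genes that were higher. That gene was DYRK3, a protein kinase gene 242.3 kb before IL24, at 0.94 (SE 0.14, limma adjusted p = 0.000323). It also rose by dose, at 0.69, and was at 0.03 in the combination against 100 nM alone. At 100 nM against DMSO, 3 of the 9 neighbours rose and 0 fell (median 0.36, all genes -0.03), where 10.7% of all genes were higher. By dose, 2 of the 9 rose and 0 fell (median 0.27, all genes -0.02), where 4.71% of all genes were higher.

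FCMR, the gene of the Fc receptor for IgM, overlaps the end of IL24 on the opposite strand. Its signals were 104 to 106 with DMSO and 138 to 147 at 10 nM, 106 to 155 at 100 nM, 98 to 118 with LY294002 and 122 to 137 in the combination. None of the DMSO or LY294002 arrays detected it, against 3 of 3 at 10 nM, 2 of 3 at 100 nM and 3 of 3 in the combination. It was at least 1.59-fold higher at 10 nM than with DMSO (log2 difference 1.20, SE 0.27, adjusted p = 0.0311), a comparison in which 1.74% of genes were higher and 0.634% lower. It was at 0.65 in the combination against LY294002 (adjusted p = 0.114). FCMR passed the filter on dim probes only through arrays with AG014699, so these p-values are no independent test. Whether a probe of one gene reads the overlapping transcript of the other was not tested.

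C1orf116, 114.4 kb after IL24, was at least 1.24-fold higher at 100 than at 10 nM (adjusted p = 0.0490), a call that 19 alternatives ended. RASSF5, EIF2D, MAPKAPK2, IL10, PFKFB2 and YOD1 passed in no comparison. IL19, IL20, PIGR and FCAMR gave no value.

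**Figure D4:**
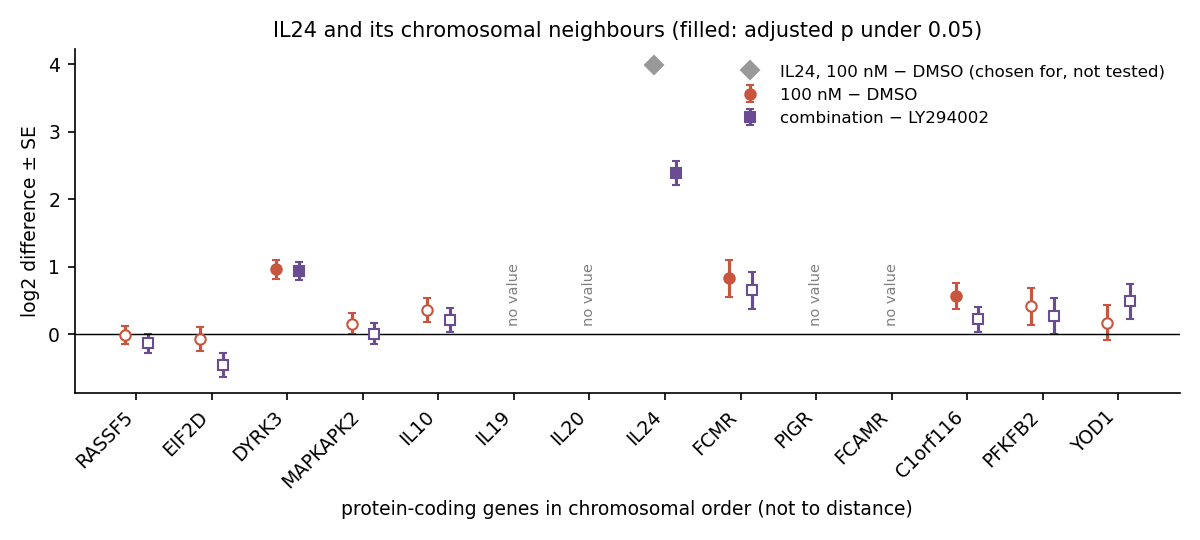
Log2 differences ± SE of IL24 and its neighbours in chromosomal order, for 100 nM AG014699 against DMSO (circles) and the combination against LY294002 (squares); filled symbols passed at an adjusted p under 0.05, and the grey diamond is the IL24 difference for which the gene was chosen. IL24 lies at 2.39 in the combination against LY294002, and DYRK3 at 0.94 is the neighbour that passed there.

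Of the transcription factors of the AP-1 and C/EBP families, all 13 listed genes were tested. In the combination against LY294002, 6 rose and 2 fell (median 0.48, all genes 0.00), where 9.42% of all genes were higher and 8.86% lower, with FOSB at 2.32 (SE 0.17), FOS at 2.10 (SE 0.24), ATF3 at 1.28 (SE 0.13) and CEBPD at -1.17 (SE 0.14). By dose, 4 rose and 1 fell (median 0.30), where 4.71% and 4.88% of all genes did. Against 100 nM alone 0 of 13 passed (median 0.24), in a comparison where 0.333% of all genes did, with FOS at 0.59 (adjusted p = 0.339) and ATF3 at 0.35 (adjusted p = 0.313).

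Genes that control the decay of AU-rich cytokine RNAs, with the p38 kinase pathway, were tested for 10 of 11 members. Against LY294002 alone, the combination raised 2 and lowered 0 (median 0.12), where 9.42% of all genes were higher and 8.86% lower, so that 2 of 10 is not far from that share. ZFP36, the gene of the RNA-destabilising protein tristetraprolin, rose by 0.88 (SE 0.14) and its relative ZFP36L1 by 0.69 (SE 0.17). Against 100 nM alone 0 of 10 passed, where 0.333% of all genes did, with ZFP36 at 0.57 (adjusted p = 0.111).

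Genes known to respond to forced IL24 expression were tested for 18 of 21 members. Against LY294002 alone, the combination raised 6 and lowered 0 (median 0.18; 9.42% and 8.86% of all genes), with the stress genes GADD45G at 2.15 (SE 0.15) and GADD45B at 1.76 (SE 0.13). The cell cycle inhibitor gene CDKN1A was at 1.37 (SE 0.18), and PPP1R15A, also known as GADD34, at 1.31 (SE 0.11). By dose, 5 rose and 2 fell (median 0.09), where 4.71% and 4.88% of all genes did, with GADD45G at 1.39 and GADD45B at 1.27. The 2 that fell were HSPA5 at -0.53 (limma adjusted p = 0.0321) and XBP1 at -0.46 (limma adjusted p = 0.0236). Each of these 2 calls was lost under 8 alternatives. Against 100 nM alone 0 of 18 passed (median 0.06), where 0.333% of all genes did, and GADD45B was at 0.58 (adjusted p = 0.0755).

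The genes whose log2 signals followed IL24 most closely over the 15 arrays were found by Pearson correlation, given as a description because the arrays share 5 treatments. The highest was LAMB3, a chain of the basement membrane protein laminin 332 (r = 0.987). CCL3L3 (0.982), CCL3 (0.975) and CCL3L1 (0.969) encode macrophage inflammatory proteins, and as near-identical copies they may share signal. G0S2 (0.978) encodes an inhibitor of fat breakdown and TNFAIP3 (0.973) a brake on NF-kB. RND3 was at 0.964, the interleukin 13 decoy receptor gene IL13RA2 at 0.957, IL1B at 0.954 and PHLDA1 at 0.948. Of 12301 genes 53 reached 0.9. By Spearman correlation 5 of these 10 genes were again in the top 10, and 9 in the top 100.

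LAMB3 had log2 means of 5.92 with DMSO, 7.52 at 10 nM, 8.28 at 100 nM, 5.70 with LY294002 and 7.13 in the combination, the high and low groups being those of IL24. Within groups, after group means were removed, its correlation with IL24 was 0.686, against 0.604 for TNFAIP3 and -0.412 for CCL3L1. The most opposite genes were STMN3, of the microtubule-binding stathmin family (-0.966), the intermediate filament gene SYNM (-0.960) and GTF2IRD2B (-0.950), which has a close copy in the genome. STMN3 had log2 means of 10.48 with DMSO, 9.22 at 100 nM and 9.65 in the combination.

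**Figure D5:**
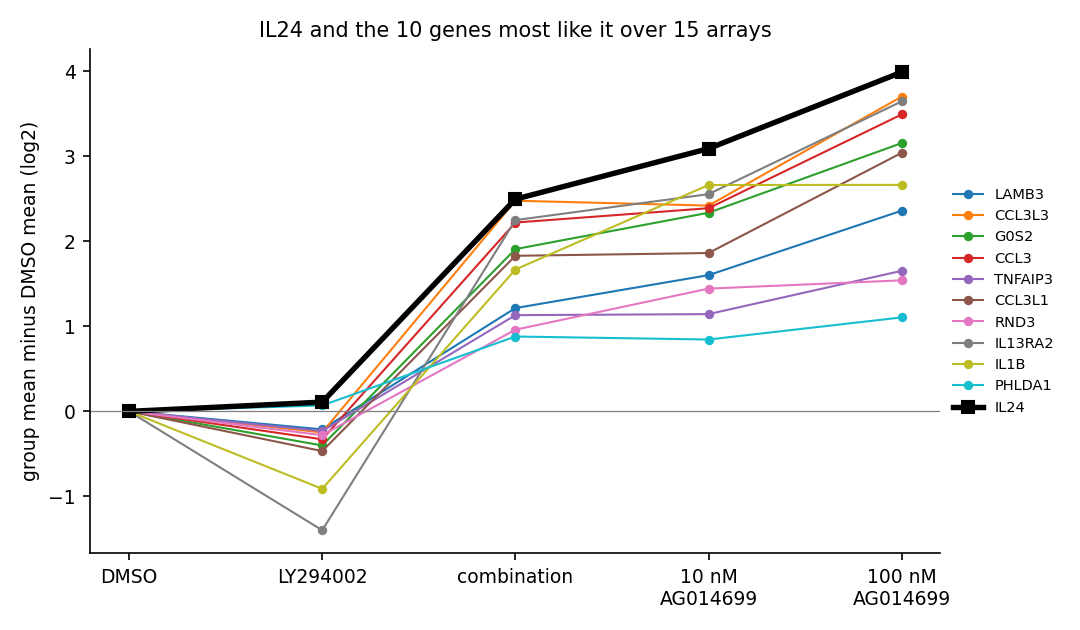
Group means of normalized log2 signal minus the DMSO mean for IL24 (thick black line) and the 10 genes most like it over 15 arrays, 3 per group. Lines only guide the eye, since the treatments on the horizontal axis form no series; IL24 and the 10 genes are all higher at 10 and 100 nM AG014699 and in the combination than with DMSO.

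Markers of leukocytes, which express IL24 in the body, were examined in the same arrays. Of 7 listed markers 3 were tested, and the others are not analysed here. The summed signal of CD14, CD68 and ITGAM was 2377 to 2532 with DMSO, 3450 to 4284 at 10 nM, 4001 to 4855 at 100 nM, 2011 to 2245 with LY294002 and 3980 to 4981 in the combination. CD68, a lysosomal protein gene, rose by 1.37 in the combination against LY294002 (SE 0.14, adjusted p = 1.08e-05), and ITGAM was at least 1.49-fold higher. CD14 was at -0.24 (adjusted p = 0.263) and fell by 1.36 from 10 to 100 nM, where IL24 rose. The part of these markers in the IL24 result was not tested.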

How the data were processed

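Total RNA was labelled with biotin and hybridized to Illumina HumanHT-12 v4 arrays, per the labels. Each probe has an intensity and a detection p-value per array in the deposited table, per the file headers. Array medians of 114.0 to 114.7 show that the intensities had been scaled between arrays before they were deposited; the method is not given in the sources used here. The authors' second table equals the log2 intensity minus each probe's mean, and is blank where detection p is 0.0104 or higher.

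The software was limma 3.58.1 and statmod 1.5.0 under R 4.3.3. Of the 48107 probes, 2 with missing signals were left out. Intensities were background corrected and quantile normalized with neqc (offset 16). A probe was kept if 3 or more of the 15 arrays detected it at p under 0.05 (23680 probes), of which 16577 had 1 gene symbol in the annotation and 7103 had none. The probe with the highest mean stood for a gene, which left 12302 genes. Genes with no named probe here were not analysed.

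All 15 arrays entered one limma fit with a mean for each group (10 residual and 4.8 prior degrees of freedom). Benjamini-Hochberg adjustment ran over all genes, and an adjusted p under 0.05 counts as passing; rose and fell are used only for such values. A gene undetected on every array of a group has a lower bound in place of a fold, from the lowest signal among detected probes of each array. Such bounds hold on the neqc scale only. IL24, the lists and the tests were chosen with earlier results of these data known. Named were all IL24 probes, the 10 genes most like and 3 most opposite to IL24, every family, receptor and neighbour gene, and in other lists up to 4 members with the largest changes past the threshold, with further members named after their values were seen. Replicate numbers are those of the titles. Alternatives changed background correction, normalization, source table, filter, probe, arrays, groups fitted, variance model and replicate block. The fit was tested on simulated data. The number of arrays limits the precision.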

Additional observations from a re-analysis of the deposited data

How the results depend on the processing

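In ILMN_1774685 the tested IL24 differences kept their direction under every alternative except LY294002 against DMSO, which was -0.006 without LY294002 array 1. The range without 1 array each was -0.006 to 0.202 for LY294002 against DMSO, 2.251 to 2.503 for the combination against LY294002, -1.645 to -1.347 for the combination against 100 nM, 0.752 to 1.051 for dose and -1.755 to -1.456 for the interaction (adjusted p from 0.0531 to 0.287). Against DMSO the ranges were 2.97 to 3.202 at 10 nM, 3.844 to 4.142 at 100 nM and 2.36 to 2.581 in the combination.

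The differences from DMSO were smaller without neqc, and the cause was not tested. With quantile normalization only, normexp, and the deposited signals they were 1.582, 1.909 and 1.583 at 10 nM, 2.301, 2.684 and 2.301 at 100 nM, and 1.164, 1.44 and 1.163 in the combination. The mean of the probes gave 1.808, 2.46 and 1.299. Probe ILMN_1725814 alone gave 0.525, 0.929 and 0.1 in those groups, 0.004 for the combination against LY294002 (adjusted p = 0.994), -0.829 against 100 nM (0.203) and 0.405 by dose (0.331). With the arrays numbered 1 dropped, the combination against 100 nM was -1.262 and dose 0.641, neither passing; fewer arrays were then fitted. The interaction passed at -1.178, -1.299 and -1.18 for the same 3 scales in turn, at -1.603 with a trended robust variance, and at -1.572 with values raised to the detection floor, an alternative chosen after seeing the data. The authors' second table is blank for IL24 with DMSO and LY294002, so it gave no comparison with those groups. Spearman correlation left 5 of the 10 most similar genes.

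Same-numbered arrays of different groups deviated from their group means with a correlation of -0.074 to 0.323 (median 0.161, 21 of 30 pairs over 0.1), against a median of -0.086 for arrays of other numbers, and 13 of 15 arrays were closest to one of their own number. This hints at deviation shared by number, but not every pair was over 0.1 and the labels name no shared source, so the fit without the block was kept. With the replicate block the combination against 100 nM was -1.494 (adjusted p = 0.001922), the interaction stayed short of passing (0.06627), and 80 in place of 41 genes passed for the combination against 100 nM.

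Counts over all genes moved more than IL24. The combination against 100 nM had 41 calls, 9 with the arrays numbered 1 dropped, 129 with quantile normalization only and 20 to 58 without 1 array. LY294002 against DMSO had 138, 31 and 282, and 64 to 160 without 1 array. Of the named calls, 37 of 44 held throughout for the combination against LY294002, 16 of 27 by dose, 6 of 14 for the combination against 100 nM and 4 of 12 for LY294002 against DMSO, and 0 reversed. IL24 near the detection limit leaves no room to measure a fall.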
